A study of Macaca fascicularis with 48 samples.

Results

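Microtubules, the tubulin polymers that give axons their shape and carry their transport, were followed through a set of 10 genes: the neuronal tubulins TUBB3, TUBB2A, TUBB4A and TUBA4A, the microtubule-associated proteins MAP1A, MAP1B, MAP2 and MAPT, the tubulin-binding protein STMN2 and the tubulin folding cofactor TBCB. The members were taken by gene name from a count table of 16842 gene names, and 8 of the 10 had a row there. MAPT and TUBB4A were not analysed here. A microtubule is built from dimers of an alpha and a beta tubulin, which chaperones and tubulin cofactors fold and join. Microtubule-associated proteins bind along the polymer and stabilise or space it, with MAP2 typical of dendrites and cell bodies and MAP1B typical of growing and adult peripheral axons. Stathmins bind free tubulin dimers and promote turnover of the polymer. Sensory neurons of the dorsal root ganglia sit beside the spinal cord and send an axon to the periphery and another into the cord. They hold large amounts of many of these proteins.

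The genes were followed in 48 mRNA libraries of cynomolgus monkeys, Macaca fascicularis, dosed with GS-8873, which the labels describe as blocking hepatitis B virus transcripts, by oral gavage for 13 weeks. Treated animals received 6 mg/kg/day and controls 0 mg/kg/day. There were 6 tissues, namely dorsal root ganglia of the cervical and lumbar levels, the spinal cord at its cervical, thoracic and lumbar levels, and liver. Each tissue had 4 libraries per dose, 2 of each sex. By their labels the libraries come from 10 animals: 4 controls, which gave every tissue, and 6 treated animals, of which 2 gave ganglia of both regions. The age of the animals is not given in the labels, and the animals carry no stated genetic change. Replicates were separate animals within a tissue, while libraries of different tissues could share an animal. The design text counts 8 animals.

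The library totals lay between 35453786 and 53480762 counts. Liver markers, central myelin and sensory neuron markers followed the tissue labels except in a few cord libraries. Lumbar cord control 1 and treated 1 had 0.258 and 0.0870 CPM (counts scaled to equal library totals) of MOG, a protein of central myelin, against 330 CPM or more in the other 22 cord libraries. These libraries and cervical cord control 1 were also the lowest of the cord in neuron markers. Lumbar cord control 1 and treated 1 had 5257 and 4743 CPM of PRX, a protein of peripheral myelin. PRX was also at 1592 CPM in cervical cord control 1 and 1964 CPM in lumbar cord control 2. Its cord medians were 23.1 CPM in controls and 15.9 CPM in treated animals. Cervical control 1 and lumbar control 2 stay in the values given without cord libraries under 1 CPM of MOG. Peripheral tissue in these libraries was not tested. The mitochondrial genome took over 30% of counts in thoracic cord control 4, treated 1 and treated 4, and 23.01% in cervical ganglion treated 4, where AVIL, a sensory neuron marker, was at 405 CPM against 1018 to 1506 CPM in the cervical controls. Values without some of these libraries are given beside part of the results they touch.

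On the Macaca_fascicularis_5.0 build, the beta tubulin genes TUBB3 and TUBB2A lie on chromosome 20 from 78364820 to 78379209 and on chromosome 4 from 167929220 to 167934404, both on the plus strand. The alpha tubulin gene TUBA4A lies on the minus strand of chromosome 12 from 108939601 to 108946403. MAP1A is on chromosome 7 from 20495681 to 20516647, MAP1B on chromosome 6 from 70253955 to 70357894 and MAP2 on chromosome 12 from 99152744 to 99233619, all on the plus strand. STMN2 is on the plus strand of chromosome 8 from 80748062 to 80802994, and TBCB on that of chromosome 19 from 36609032 to 36628861. Counts cover the exons of each gene without regard to strand. Exon bases are shared with a neighbour in TUBA4A (84 bases, with STK16), TUBB2A (384 bases, with BPHL) and TBCB (276 bases, with POLR2I), and reads there could not be assigned to 1 gene. TUBB2B, a near copy of TUBB2A, ends 60092 bases before it with 0 listed genes between, so counts of this pair are uncertain where their reads match both.

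In control animals most members were far higher in ganglia than in cord, and all were low in liver. STMN2, which binds free tubulin, had the highest level per exon length of the set in ganglia, at 999 ± 163 RPKM (reads scaled to exon length in kilobases and to library size; SD, n = 4) in lumbar and 898 ± 254 RPKM in cervical ganglia. MAP1B followed with 571 ± 114 and 482 ± 138 RPKM, and TUBB3, the beta tubulin of neurons, with 563 ± 75.3 and 437 ± 161 RPKM. TUBB2A, a beta tubulin common in neurons, had 357 ± 71.5 and 307 ± 109 RPKM. These 4 genes had the highest means, and their ranges overlapped in part. The range of TUBB2A, from 156 RPKM, also overlapped that of MAP1A, up to 211 RPKM. Lengths include the exon bases shared with neighbours, so the levels of TUBB2A, TUBA4A and TBCB may read low. MAP1A, a microtubule-associated protein of mature neurons, had 178 ± 28.5 and 136 ± 48.3 RPKM, and TUBA4A, the alpha tubulin member, 124 ± 22.7 and 104 ± 42.9 RPKM. The cofactor TBCB had 67.2 ± 2.88 and 58.2 ± 8.57 RPKM. MAP2 was lowest, at 21.3 ± 4.84 and 19.9 ± 4.12 RPKM. Together the 8 members took 0.832% to 1.66% of all counts in control ganglia, 0.0738% to 0.813% in control cord and 0.00376% to 0.00486% in control liver.

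**Figure D1:**
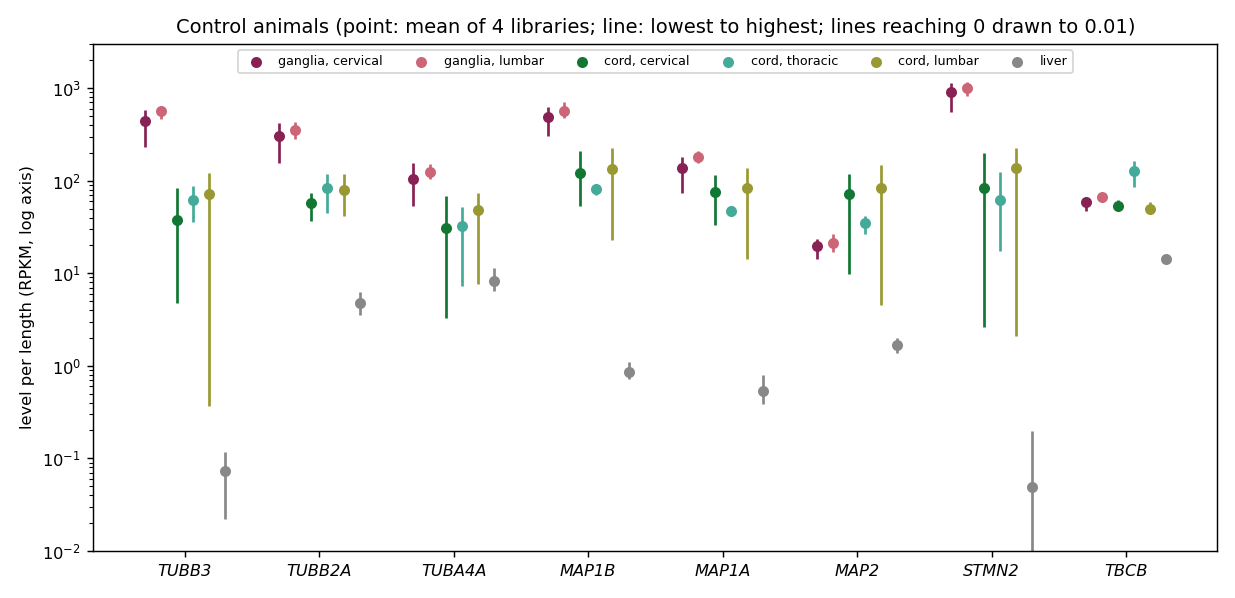
Levels per exon length (RPKM, log axis) of the 8 members in the 6 tissues of control animals, with points for the mean of 4 libraries and lines from the lowest to the highest. STMN2, MAP1B, TUBB3 and TUBB2A lie highest in ganglia, MAP2 is lower there than its means in cord, and liver lies below the other tissues, where its line for TUBA4A overlaps those of cord.

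In control cord the levels of the neuronal members were lower and spread widely. The means include the control libraries high in PRX. TUBB3 had 71.2 ± 50.9 RPKM in lumbar, 61.9 ± 21.6 in thoracic and 38.1 ± 32.5 in cervical cord, and the ranges of these neighbours overlapped. STMN2 had 138 ± 97.8, 61.9 ± 45.6 and 83.6 ± 82.0 RPKM in the same order. MAP1B had 135 ± 86.4, 82.1 ± 8.78 and 120 ± 65.5 RPKM, and MAP1A 83.8 ± 55.9, 47.1 ± 5.84 and 76.0 ± 33.8 RPKM. TUBB2A had 79.5 ± 31.4, 82.7 ± 32.5 and 58.0 ± 15.5 RPKM, and TUBA4A 47.9 ± 28.4, 32.3 ± 18.6 and 30.96 ± 27.7 RPKM. MAP2 had 83.9 ± 63.4, 35.3 ± 6.42 and 72.1 ± 45.7 RPKM, each mean above its means in ganglia. TBCB had 49.9 ± 5.76 in lumbar, 129 ± 36.4 in thoracic and 53.6 ± 6.52 RPKM in cervical cord, and its thoracic range lay above those of all other tissues. The ranges of lumbar and cervical ganglia overlapped for all 8 members, and those of the cord regions overlapped for all members except TBCB.

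Of the 8 members, 6 passed as higher in control ganglia than in control cord (limma, animal as random block, Benjamini-Hochberg adjusted p under 0.05), where 30.9% of 15008 tested genes did. The tubulins gave log2 differences of 3.94 ± 0.86 (SE) for TUBB3 (adjusted p = 0.000541), 2.22 ± 0.22 for TUBB2A (5.16e-08) and 2.06 ± 0.50 for TUBA4A (0.00137). MAP1B gave 2.44 ± 0.34 (3.77e-06), MAP1A 1.39 ± 0.33 (0.00119) and STMN2 4.29 ± 0.82 (0.00016). TBCB gave -0.14 ± 0.10 (0.196). MAP2 gave -1.09 ± 0.47 (0.0511), and without lumbar cord control 1, the control cord library under 1 CPM of MOG, it passed as lower in ganglia at -1.47 (0.000547). Without that library TUBB3 gave 3.24, STMN2 3.75, MAP1A 1.14 and TUBA4A 1.81, all still past the threshold. TUBB2B, the near copy, gave 0.47 ± 0.27 (0.129). Leaving out all libraries of control animal 1, whose cervical and lumbar cord were lowest in neuron markers among controls, MAP2 passed as lower in ganglia at -1.85 (1.23e-06), and MAP1A gave 0.92 (0.00189). Between lumbar and cervical control ganglia 0 of 8 members passed, also 0 at an unadjusted p under 0.05, where 0.04% of 15008 genes passed in either direction.

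In control liver MAP2 had 1.69 ± 0.26 RPKM, MAP1B 0.866 ± 0.169 and MAP1A 0.537 ± 0.186. TBCB, which all cells use, had 14.2 ± 1.06 RPKM, TUBA4A 8.21 ± 2.22 and TUBB2A 4.81 ± 1.08. Scaled to total counts in place of TMM these liver levels were lower by more than 1.5 times, for example 0.433 RPKM for MAP1B and 7.09 RPKM for TBCB. TUBB3 had 2 to 11 counts per control liver library. STMN2 had 0 counts in 6 of the 8 liver libraries, which allows up to 0.0561 to 0.0615 CPM each (3 counts, counting error only), and 6 and 10 counts in the other two. All 8 members passed as higher in ganglia than in liver, where 38.4% of genes did, with log2 differences from 2.16 ± 0.16 for TBCB to 9.27 ± 0.54 for MAP1B among the 6 members with more than 100 counts in every liver control.

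In ganglia of treated animals MAP1B fell, and most of the other members had lower mean levels without passing the test over both regions. All 8 members had negative log2 fold changes in the fit of the 16 ganglion libraries, from -0.01 to -1.17 with a median of -0.68, beside a median of 0.04 over all 14168 genes tested, but with total counts in place of TMM scaling MAP2 (0.06) and TBCB (0.11) were positive. Of the 8, MAP1B passed as lower and 0 passed as higher, where 0.988% of genes passed as lower. In bulk tissue, fewer neurons and less RNA per neuron cannot be told apart. The 10 neuron markers all had negative log2 fold changes in the same fit (median -0.44), as did 8 of 10 sensory neuron markers (median -0.70), and 0 of either list passed. The summed neuron markers ran from 4837 to 8586 CPM of total counts in cervical and 7611 to 8535 CPM in lumbar control ganglia, against 5258 to 6043 and 4455 to 6273 CPM in treated ganglia. The summed sensory neuron markers overlapped between the groups. In lumbar ganglia controls had 4261, 5190, 5070 and 4167 CPM, and treated had 2436, 6626, 5466 and 4320 CPM. In cervical ganglia they ran from 3582 to 4996 CPM in controls and from 1548 to 5027 CPM in treated animals. The part of neuron content in the members' values was not tested.

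MAP1B, which binds and stabilises axonal microtubules, gave the clearest separation. In cervical ganglia, controls 1 to 4 had 8041, 9015, 6764 and 4587 TMM-scaled CPM (library totals adjusted for composition), and treated 1 to 4 had 3620.5, 3465, 3695 and 2509 CPM. In lumbar ganglia, controls had 9297, 10086, 7043 and 7145 CPM, and treated had 3227, 3508, 3349 and 4292 CPM. All 8 treated libraries lay below all 8 controls, which held for 1 of 8 members and for 1.28% of all genes. The means were 7747 ± 1748 CPM in controls and 3458 ± 499.6 CPM in treated ganglia (SD, n = 8 libraries), a log2 fold change of -1.17 ± 0.17 (SE; limma adjusted p = 0.00673). Leaving out control animal 1, 2 or 3 gave -1.14, -1.09 and -1.16 with adjusted p of 0.15, 0.182 and 0.0891. It also missed the threshold with total counts in place of TMM scaling (-1.06, adjusted p = 0.132, while the median of all genes moved from 0.04 to 0.16) and with counts summed per animal in edgeR (-1.15, 0.0722).

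**Figure D2:**
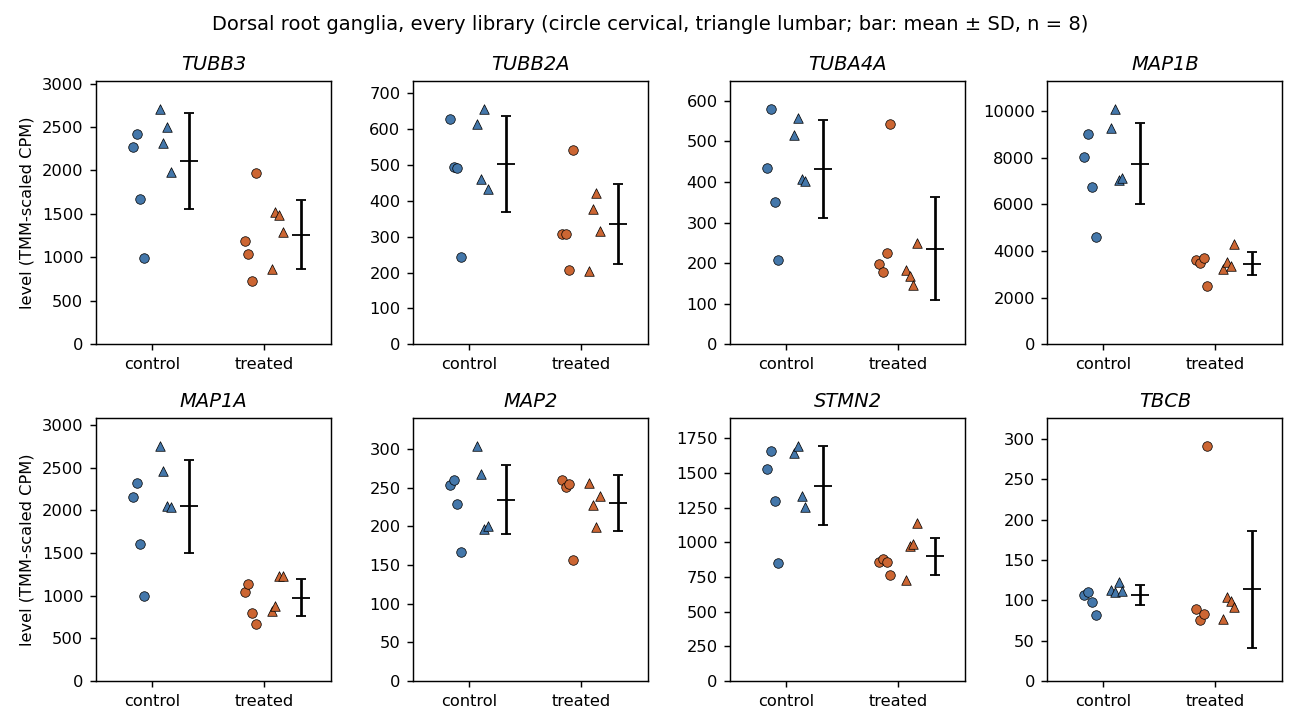
TMM-scaled CPM of the 8 members in each of the 16 ganglion libraries (circles cervical, triangles lumbar), with the mean and SD of 8 libraries beside each group. The 8 treated libraries of MAP1B lie below its 8 controls. MAP2 overlaps apart from 1 treated cervical library just below its controls, and the same library stands high in TBCB and TUBA4A.

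Among the tubulin members, TUBA4A, the alpha tubulin member, had the largest drop in lumbar ganglia. Its lumbar controls had 516, 557, 408 and 401.8 CPM, and its lumbar treated libraries 183, 168, 145 and 249 CPM. In cervical ganglia its controls had 436, 579, 351 and 207 CPM, and treated 1 to 3 had 198, 177 and 225 CPM, while treated 4 had 542 CPM. The lumbar groups did not overlap, and the cervical groups did, through a low control and the high treated library. Over both regions TUBA4A gave -0.90 ± 0.34 (limma adjusted p = 0.283), and without cervical treated 4 it gave -1.18 (0.00653).

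TUBB3, the beta tubulin that marks neurons, had 2704, 2311, 2503 and 1982 CPM in lumbar controls and 869, 1520, 1488 and 1286 CPM in lumbar treated ganglia. In cervical ganglia it had 2272, 2422, 1672 and 997 CPM in controls and 1193, 1033, 727 and 1966 CPM in treated animals. The lumbar groups did not overlap, while control 4 and treated 4 crossed in the cervical groups. Over both regions it gave -0.70 ± 0.30 (limma adjusted p = 0.378), and -0.91 (0.0271) without cervical treated 4. TUBB2A, the other beta tubulin, ran from 434 to 656 CPM in lumbar controls and from 206 to 423 CPM in lumbar treated ganglia. In cervical ganglia its ranges of 245 to 627 and 207 to 541 CPM overlapped, and both regions gave -0.56 ± 0.30 (0.509). TUBB2B, its near copy, gave -0.32 ± 0.31 (0.743), with means of 414 ± 83.5 and 343 ± 125 CPM.

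MAP1A, the other large member of the MAP1 family, had 2753, 2461, 2051 and 2036 CPM in lumbar controls and 817, 875, 1231 and 1226 CPM in lumbar treated ganglia. In cervical ganglia its controls had 2160, 2314, 1606 and 989.95 CPM and its treated libraries 1042, 1141, 799 and 672 CPM. Treated and control libraries overlapped only through cervical control 4, the library with the most fibroblast marker counts among ganglia (8790 CPM). Over both regions MAP1A gave -1.05 ± 0.27 (limma adjusted p = 0.0834), and it passed without cervical control 4 (-1.17, 0.0151), cervical treated 2 (-1.12, 0.0414) or cervical treated 4 (-1.003, 0.0202).

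MAP2, the dendritic member, stayed within its control range in 7 of 8 treated ganglia. Its controls had 254, 260.2, 229 and 166 CPM in cervical and 304, 267, 197 and 201 CPM in lumbar ganglia. Treated libraries had 259, 251, 255 and 156 CPM in cervical and 256, 228, 199 and 239 CPM in lumbar ganglia. The log2 fold change was -0.04 ± 0.15 (limma adjusted p = 0.943), so a difference of the size seen for MAP1B lay far outside its error.

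STMN2, the stathmin of neurons, had 1527, 1656, 1296 and 851 CPM in cervical controls and 859, 877, 855 and 764 CPM in cervical treated ganglia. In lumbar ganglia it had 1642, 1695, 1337 and 1258 CPM in controls and 728, 977, 984 and 1139 CPM in treated animals. The lumbar groups did not overlap, and in the cervical groups control 4 lay among the treated libraries. Over both regions STMN2 gave -0.66 ± 0.17 (limma adjusted p = 0.0818), and it passed without cervical control 4 (-0.72, 0.0154), cervical treated 4 (-0.65, 0.0266) or control animal 4 (-0.80, 0.0344).

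TBCB, which helps to fold and release alpha tubulin, had 112 to 123 CPM in lumbar controls and 77.8 to 106 CPM in lumbar treated ganglia in the scaling of that region alone. In cervical ganglia, controls ran from 81.1 to 109 CPM, treated 1 to 3 had 88.5, 74.5 and 81.7 CPM, and treated 4 had 288 CPM. Both regions gave -0.01 ± 0.28 (limma adjusted p = 0.996). Across nervous tissue TBCB was also high in the other libraries with a large mitochondrial share, a pattern noticed after its values were seen. In the 6 cord libraries with over 20% mitochondrial counts it had 163 to 197 CPM of total counts (median 176), and in the other 18 cord libraries 75.8 to 166 CPM (median 92.3). In ganglia it had 225 CPM in the 1 library over 20% and 83.4 to 115 CPM in the other 15. The 6 cord libraries were thoracic control 2, control 4, treated 1 and treated 4, and cervical and lumbar treated 4. Thoracic cord was the region highest in TBCB in controls. The treated 4 cord libraries and the ganglion library came from 1 animal. Region, animal and mitochondrial share were not separated here.

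Lumbar ganglia tested alone gave the most calls. In edgeR, TUBA4A (-1.32 ± 0.19, adjusted p = 0.0172), MAP1B (-1.20 ± 0.18, 0.0172) and MAP1A (-1.17 ± 0.19, 0.0219) fell, 3 of 8 members, where 3.65% of 14267 genes passed as lower. TUBB3 gave -0.87 ± 0.21 (0.0563), TUBB2A -0.71 ± 0.24 (0.134), STMN2 -0.62 ± 0.18 (0.0929), TBCB -0.29 ± 0.11 (0.168) and MAP2 -0.04 ± 0.12 (0.865). Of the 8 members, 7 had all 4 treated libraries below all 4 controls, all but MAP2, where 9.35% of genes did. Leaving out lumbar control 1, 2 or 3 left 0 members past the threshold, with adjusted p from 0.0538 to 0.0757 for those 3 genes, leaving out treated 3 left 1, and MAP1A also missed the threshold without treated 4 (0.0507).

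In cervical ganglia alone 0 of 8 members passed in edgeR, where 0% of 14173 genes did in either direction. At an unadjusted p under 0.05, for which no share over all genes is given, there were 3 (MAP1A, MAP1B and STMN2). In DESeq2 2 passed (MAP1A and MAP1B), where 225 of the 14173 genes did in either direction, and in limma voom 0 members passed. MAP1B gave -1.07 ± 0.24 (edgeR adjusted p = 0.348), MAP1A -0.93 ± 0.21 (0.348) and STMN2 -0.64 ± 0.21 (0.51). MAP1B was the 1 member with all 4 treated libraries below all 4 controls, where 3.28% of genes were. TUBB3 gave -0.53 ± 0.38, TUBA4A -0.49 ± 0.47, TUBB2A -0.42 ± 0.37, MAP2 0.02 ± 0.20 and TBCB 0.33 ± 0.44, with adjusted p of 0.752 or more. Without treated 4, the library with the large mitochondrial share, TUBB3 gave -1.01, TUBA4A -0.98, TUBB2A -0.87, MAP2 0.13 and TBCB -0.29, and 0 members passed. Leaving out another library brought TUBB3 to -0.37 (without treated 2), TUBA4A to -0.20 (without treated 2) and TUBB2A to -0.27 (without treated 3). The treatment effect did not differ between the regions for any member at the threshold (0 of 8, also 0 at an unadjusted p under 0.05; 0% of 14535 genes), and the differences, lumbar minus cervical, ran from -0.56 ± 0.32 for TUBA4A to 0.05 ± 0.17 for STMN2, with -0.15 ± 0.17 for MAP1B.

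**Figure D3:**
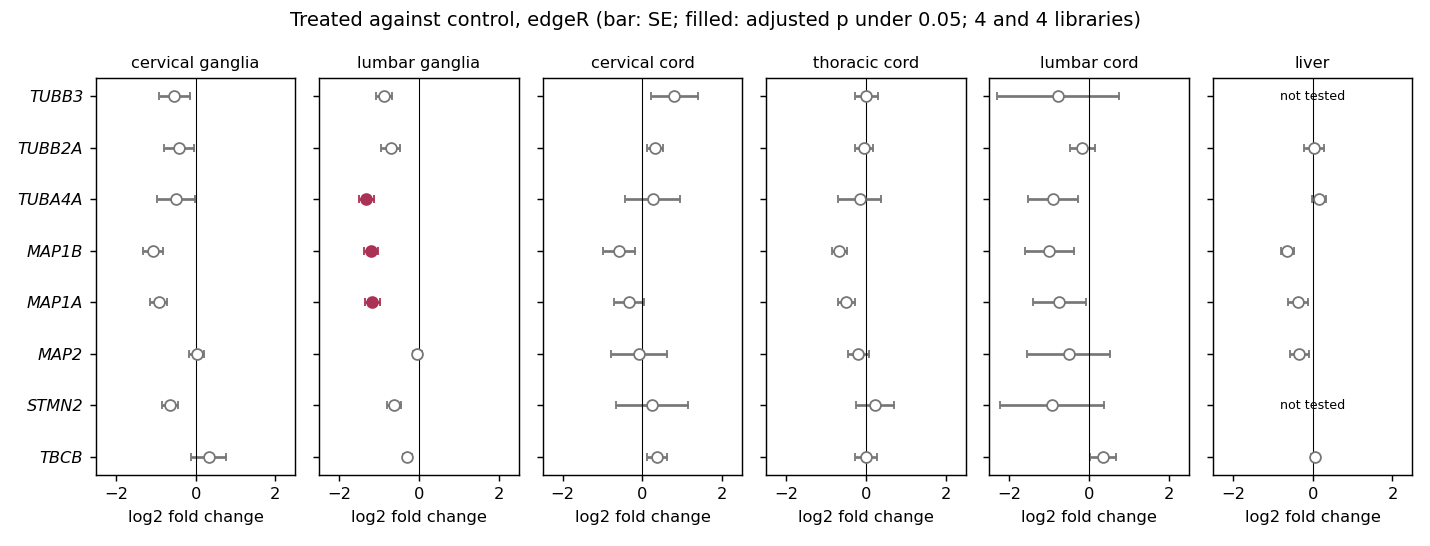
Log2 fold changes, treated against control, of the members in the 6 tissues tested alone in edgeR (4 and 4 libraries; all 8 members in 5 tissues, 6 in liver), with SE bars and filled points for an adjusted p under 0.05. TUBA4A, MAP1B and MAP1A are filled in lumbar ganglia, and MAP1B lies left of 0 in all 6 tissues.

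The ratio of MAP1B to MAP2 counts within a library, which needs no scaling between libraries, was chosen after their values were seen and is given without a test. Control cervical ganglia had 31.7, 34.6, 29.6 and 27.6 counts of MAP1B per count of MAP2, and treated cervical ganglia 13.9, 13.8, 14.5 and 16.1. Control lumbar ganglia had 30.6, 37.7, 35.8 and 35.5, and treated lumbar ganglia 12.6, 15.4, 16.8 and 17.9. The 16 values fell into separate ranges by group in both regions, including treated cervical 4 and control cervical 4, the libraries that stood apart in single genes. MAP1B per MAP1A did not separate, with 3.38 to 4.63 in controls and 2.72 to 4.62 in treated ganglia over both regions. The ratio of TUBB3 to TUBB2A ran from 3.41 to 5.02 in controls and from 3.36 to 4.22 in treated ganglia, and also overlapped. In lumbar cord, MAP1B per MAP2 was 6.45, 2.40, 1.96 and 1.91 in controls and 10.6, 1.41, 1.32 and 1.76 in treated libraries. Without control 1 and treated 1, the libraries lacking MOG, the lumbar cord groups did not overlap either.

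**Figure D4:**
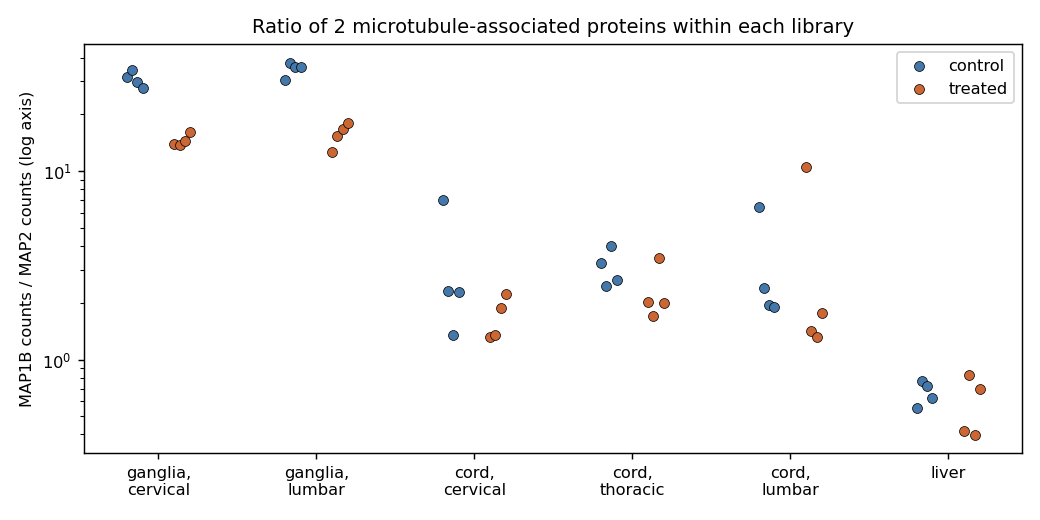
Counts of MAP1B per count of MAP2 in each library (log axis) by tissue and group. In ganglia the 8 controls lie between 27.6 and 37.7 and the 8 treated libraries between 12.6 and 17.9, while in cord and liver the groups overlap. In lumbar cord the overlap rests on control 1 and treated 1, the libraries lacking MOG.

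Other genes of the microtubule system were read from 10 lists holding 96 further genes of the table. Over both ganglion regions 95 were tested, 63 had negative log2 fold changes (median -0.13) and 0 passed in limma, beside 6288 negative of all 14168 genes. The counts by list that follow also hold the 8 members, all negative. All 6 tested beta tubulins, TUBB3 and TUBB2A included, were negative (median -0.44), with the smallest p for TUBB6, a broadly expressed beta tubulin (-0.43 ± 0.16, adjusted p = 0.283). Of 5 alpha tubulins, with TUBA4A, 3 were negative (median -0.32), and of the 4 gamma, delta and epsilon tubulins 1 was (median 0.12; TUBD1 0.19 ± 0.15, adjusted p = 0.676). All 4 stathmins, with STMN2, were negative (median -0.50), and 14 of 18 structural microtubule-associated proteins, with MAP1A, MAP1B and MAP2, were (median -0.39), among which MAP1B was the 1 that passed. Of 15 proteins of the plus and minus ends 11 were negative (median -0.32), with the smallest p for MAPRE3, an end-binding protein of neurons (-0.89 ± 0.25, 0.106). All 9 kinases and phosphatases that act on microtubule-associated proteins were negative (median -0.31), led by PPP2R2C, a phosphatase subunit (-0.76 ± 0.21, 0.1).

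Of 17 folding factors and chaperones, with TBCB, 10 were negative (median -0.02), with the smallest p for TBCD, a tubulin cofactor (-0.61 ± 0.16, limma adjusted p = 0.0922). Of 19 tubulin-modifying enzymes 10 were negative (median -0.08), with the smallest p for AGTPBP1, which removes glutamates from tubulin (-0.71 ± 0.18, 0.0692). Of 6 severing proteins 3 were negative (median 0.00), with FIGN, a severing enzyme, at 0.52 ± 0.26 (0.476). In lumbar ganglia alone 7 of the 95 fell and 1 rose in edgeR, where 3.65% of the 14267 genes passed as lower and 91 genes as higher. Calls over all genes there ran from 18 to 670 on leaving out single libraries. Those that fell were TUBA1C, an alpha tubulin (-1.41 ± 0.26), TUBB4B, a beta tubulin (-0.66 ± 0.13), MAPRE3 (-1.005 ± 0.17), the plus-end protein CLIP2 (-0.82 ± 0.11), the prefoldin subunit PFDN1 (-0.70 ± 0.11), the tubulin tyrosine ligase TTL (-0.57 ± 0.12) and the kinase CDK5 (-0.67 ± 0.12). NAV3, a neuron navigator that binds plus ends, rose by 0.69 ± 0.15.

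In spinal cord 0 of 8 members passed in edgeR in any region or in counts summed per animal, where 0% of genes passed in each of the 4 comparisons. MAP1B had the most negative log2 fold change among the members in each. In thoracic cord its controls had 1026, 794, 928 and 975 CPM and its treated libraries 483, 678, 607 and 579 CPM. All 4 treated lay below all 4 controls there, which held for 1 of 8 members and 1.17% of genes, with a log2 fold change of -0.67 ± 0.19 (edgeR adjusted p = 0.981). Without the 3 thoracic libraries over 30% mitochondrial it was -0.47. In cervical cord controls had 767, 1765, 1331 and 2939 CPM and treated had 1122, 1339, 1130 and 808 CPM (-0.59 ± 0.39, adjusted p = 0.559). In lumbar cord controls had 331, 1823, 3387 and 2670.1 CPM and treated had 363, 1133, 1269 and 903.6 CPM (-1.003 ± 0.62, adjusted p = 0.9999). The groups overlapped in both regions, and control 1 was the lowest control in each. Leaving out single libraries moved the cervical value from -0.90 without control 1 to -0.21 without control 4. In lumbar cord it ran from -1.49 without treated 2 to -0.57 without control 2, and without both libraries under 1 CPM of MOG it was -1.19 (edgeR adjusted p = 0.694). Summed per animal, MAP1B gave -0.77 ± 0.31 (edgeR adjusted p = 0.858), from -1.02 without control 1 to -0.63 without treated 4.

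MAP1A had the next lowest log2 fold change in thoracic cord, -0.49 ± 0.21 (edgeR adjusted p = 0.981), and -0.34 without libraries over 30% mitochondrial. Summed per animal MAP1A gave -0.54 ± 0.34 (edgeR adjusted p = 0.858). MAP2 gave -0.27 ± 0.50, STMN2 -0.30 ± 0.51, TUBA4A -0.30 ± 0.44, TUBB2A 0.02 ± 0.21, TUBB3 0.00 ± 0.40 and TBCB 0.26 ± 0.24 summed per animal, with adjusted p of 0.858 or more. At an unadjusted p under 0.05, for which no share over all genes is given, there were 2 members in thoracic cord (MAP1A and MAP1B). There was 1 in the summed counts (MAP1B) and 0 in cervical and lumbar cord. DESeq2 and limma voom also called 0 members in each. Treated libraries lay below all controls for 0 of 8 members in cervical cord (2.91% of genes), lumbar cord (0.884%) and the summed counts (1.43%).

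Levels of TUBB3 and STMN2 in cord were lowest in the libraries lowest in neuron markers, apart from the other cord libraries. In cervical cord control 1, and in lumbar cord control 1 and treated 1, the summed neuron markers were at 494, 343 and 404 CPM of total counts, against 1051 to 5788 CPM in the other 21 cord libraries. TUBB3 was at 19.6, 1.51 and 1.27 CPM in those 3 and at 117 CPM or more in the others. STMN2 was at 3.83, 3.09 and 1.70 CPM in those 3 and at 20.3 CPM or more in the others. TBCB had 91.8, 79.2 and 91.7 CPM in the same 3 libraries, within its range in the other 21. TUBB2A had 54.9, 61.5 and 58.0 CPM, above its lowest value elsewhere, 52.4 CPM. MAP1B had 767, 331 and 363 CPM, of which the first lay within its range elsewhere. The part of neuron content in the cord values was not tested.

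**Figure D5:**
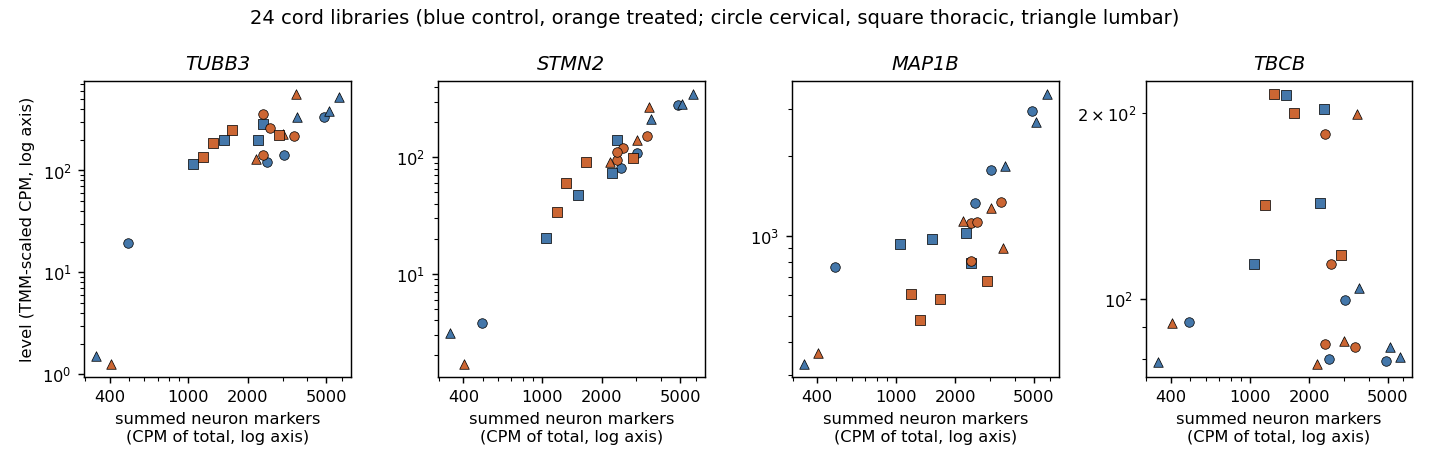
TMM-scaled CPM of TUBB3, STMN2, MAP1B and TBCB against the summed CPM of 10 neuron markers in 24 cord libraries (log axes; blue control, orange treated). TUBB3 and STMN2 drop to under 20 CPM in the 3 libraries lowest in neuron markers, while TBCB does not.

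In liver 0 of the 6 members tested passed in edgeR, where 0% of 12609 genes did. STMN2 and TUBB3 were too low to be tested. MAP1B had 4.71, 5.21, 7.26 and 5.35 CPM in controls and 2.92, 2.92, 3.89 and 4.98 CPM in treated animals, so 3 of 4 treated livers lay below all controls. For 0 of the 6 members did all 4, where 3.09% of genes did. Its log2 fold change was -0.63 ± 0.17 (edgeR adjusted p = 0.374). MAP1B was the 1 member at an unadjusted p under 0.05, for which no share over all genes is given. It was also the 1 member called by DESeq2 (adjusted p = 0.0465), where 190 of the 12609 genes were called in either direction. In limma voom 0 members were called. MAP1A gave -0.36 ± 0.25, MAP2 -0.34 ± 0.24, TUBA4A 0.15 ± 0.18, TBCB 0.06 ± 0.11 and TUBB2A 0.03 ± 0.25, with adjusted p of 0.76 or more.

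The difference in treatment effect between tissues was tested in 1 fit of all 48 libraries (limma, animal as random block), and all effects use the same 4 control animals. For ganglia minus cord 0 of 8 members passed, where 0.308% of 15240 genes did. The smallest p was that of TUBB2A (-0.61 ± 0.29, limma adjusted p = 0.485), the 1 member at an unadjusted p under 0.05. No share over all genes is given for that unadjusted threshold. MAP1B gave -0.54 ± 0.38 (0.701), -0.41 without the cord libraries under 1 CPM of MOG, and from -0.13 without control animal 1 to -0.88 without control animal 4. TUBB2A ran from -0.35 to -0.77 on leaving out the same animals. For ganglia minus liver 0 of 8 members passed, also 0 at an unadjusted p under 0.05, where 0.0328% of genes did, and MAP1B gave -0.59 ± 0.66 (0.999). The lower MAP1B in ganglia was thus not shown to differ in size from the values in cord or liver.

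Genes whose levels across the 24 control libraries were most like each member, by the mean absolute difference of centred log2 CPM over 13405 genes, are given as a description. TUBB3 was followed most closely by SYT4, a synaptotagmin (0.45, where the median over all genes was 3.64), and by TAC1, a sensory neuropeptide precursor (0.60). TUBB2A was followed by NCALD (0.34) and PFKP (0.38), and TUBA4A by ACOT7 (0.31) and TESC (0.36). MAP1B was followed by MARK1, a kinase that phosphorylates microtubule-associated proteins (0.32), and RAB6B (0.33), MAP1A by RNF157 (0.28) and NEGR1 (0.28), and MAP2 by SEZ6 (0.36) and the glutamate receptor gene GRIA3 (0.36). STMN2 was followed by the neurofilament genes NEFM (0.64) and NEFL (0.68). TBCB was followed by B9D1 (0.18) and SPACA9 (0.20), where the median over all genes was 0.92. These libraries share animals, and the values mostly reflect the gaps between ganglia, cord and liver.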

How the data were processed

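Messenger RNA was measured in 48 libraries. The deposited table holds unnormalised counts; per the file headers the authors used featureCounts 1.4.6-p1 and Ensembl release 94 of Macaca_fascicularis_5.0. The submitters' processing notes name STAR 2.5.3a. No option for read pairs or strand appears in the header's command, so each mate of a 50-base pair was counted. Per the labels, RNA from RNAlater-preserved tissue was purified (miRNeasy), and the libraries were TruSeq stranded mRNA, sequenced on an Illumina HiSeq. Exon lengths came from the deposited table.

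Samples were grouped by tissue and dose from the labels. Each tissue was tested in edgeR 4.0.16 (R 4.3.3; TMM, filterByExpr, robust quasi-likelihood, sex as covariate), and cord also on counts summed per animal. The 16 ganglion libraries, all 48 libraries and the 24 control libraries were fitted in limma 3.58.1 (voom, duplicateCorrelation with animal as block). Tests were two-sided, with Benjamini-Hochberg adjustment over all genes tested and a threshold of 0.05; no p was adjusted over the members. Counts of members at an unadjusted p under 0.05 are given without the share over all genes. The scripts were tested on simulated data. Floors cover counting error only, and SDs are between libraries. SEs and p-values rest on the spread that each fit leaves between its libraries, or between animals in summed counts, of 1 study. CPM of members is TMM-scaled within the fit named, marker CPM is of total counts, and RPKM uses TMM over 48 libraries.

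The members and lists were chosen with earlier results of these data known. All members were named; of each further list, genes past the threshold over both ganglion regions or the 1 with the smallest p, and the 2 genes most like each member. Genes of those lists named in lumbar ganglia were named because they passed there, after values were seen. Same-numbered control and treated lumbar cord libraries correlated at 0.919, 0.192, 0.792 and 0.505 in their deviations from group means. Their animals differ, but same-numbered libraries share sex, and the first pair is the 2 libraries lacking MOG. In the other tissues the mean over same-numbered pairs ran from -0.087 in cervical ganglia to 0.292 in thoracic cord. Alternatives were DESeq2 1.42.0, limma voom, median-ratio size factors, no filter, no sex term, a block for replicate number, a mean of at least 1 CPM, and leaving out replicates, animals or libraries; those on single animals and on total counts were chosen after seeing the data. A further alternative is not reported here.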

Additional observations from a re-analysis of the deposited data

Results flagged for a closer look

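In the 92 groups of 4 libraries examined, 6 held a library far from the other 3 (6.52%, where chance flags about 1 in 20). Of these, 3 lie in cervical ganglion treated 4, the library with 23.01% mitochondrial counts: MAP2 was low at 153.9 CPM (others 248 to 256), while TUBA4A was high at 534.7 CPM (others 175 to 223) and TBCB at 287.6 CPM (others 74.5 to 88.5). TBCB was also high in lumbar cord treated 4, which came from the same animal, at 198.7 CPM (others 78.6 to 91.7). TUBB2A was high in thoracic cord treated 2 at 120.8 CPM (others 77.1 to 79.9) and in liver treated 2 at 5.202 CPM (others 2.48 to 2.89).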

How the results depend on the processing

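Of 1339 alternative values of the members' log2 differences, 1200 kept their direction and side of the threshold, 92 reversed, 28 came to pass and 19 no longer passed; the cause was not tested. Members passing as lower numbered 2 in cervical ganglia, 6 in lumbar ganglia and 1 in liver in DESeq2. Over both regions there were 5 in DESeq2 and 3 in edgeR, both without an animal block, so that libraries of 1 animal counted as independent, 0 on counts summed per animal and 0 with total counts as scaling, and 0 to 5 on leaving out libraries or animals. In lumbar ganglia leaving out libraries gave 0 to 4, and the replicate block 1. Over all genes DESeq2 called 1769 over both regions (no animal block), 1738 in lumbar ganglia, 225 in cervical ganglia and 190 in liver, and in cord 108 cervical, 28 thoracic, 6 lumbar and 57 summed. Over both regions edgeR without an animal block called 978, summed counts 13, the replicate block 59 and leaving out libraries or animals 3 to 966; in lumbar ganglia the block called 206 and leaving out libraries 18 to 670. In cervical cord MAP2 gave 0.2274 in limma voom and 0.0978 with the replicate block. In summed cord STMN2 gave 0.1769 in limma over 24 libraries and TUBB3 0.2875 in cervical and thoracic cord alone, 0.0565 in limma voom, 0.2198 in limma over 24 libraries, 0.0027 at a mean of at least 1 CPM, 0.0466 with no sex term and 0.0562 with the replicate block. Over both ganglion regions with total counts MAP2 gave 0.0606 and TBCB 0.1147; TBCB gave 0.0326 in DESeq2, 0.1482 summed, 0.0359 in edgeR without a block, 0.0061 at 1 CPM and 0.0044 with the replicate block. In thoracic cord TUBB3 gave -0.0200 with no sex term, MAP2 0.0445 and TUBA4A 0.2317 without libraries over 30% mitochondrial, and TBCB 0.0155 in DESeq2, 0.0155 with median-ratio factors, 0.0016 in limma voom, 0.0034 at 1 CPM, 0.0233 with no filter and 0.0063 with the replicate block. On leaving out libraries, MAP2 ranged from -0.1393 to 0.1324 in cervical ganglia, -0.1334 to 0.0304 in lumbar ganglia, -0.1189 to 0.0263 over both, -0.6751 to 0.3615 in cervical, -0.3866 to 0.0357 in thoracic and -1.9171 to 0.1499 in lumbar cord. STMN2 ranged from -0.3296 to 0.8704, -0.2261 to 0.5945 and -1.9872 to 0.6641 in those cord regions and -0.6393 to 0.2461 summed. TBCB ranged from -0.2947 to 0.5572 in cervical ganglia, -0.2948 to 0.1243 over both, -0.1664 to 0.2265 in thoracic cord, -0.0406 to 0.5156 in lumbar cord and -0.0020 to 0.4060 summed. TUBA4A ranged from -0.1956 to 0.8282 in cervical cord, -0.6241 to 0.3558 in thoracic cord and -0.5841 to 0.0853 summed. TUBB2A ranged from -0.1792 to 0.1421 in thoracic cord, -0.3082 to 0.0773 in lumbar cord, -0.1201 to 0.1730 summed and -0.2171 to 0.1747 in liver. TUBB3 ranged from -0.2225 to 0.2016 in thoracic cord, -1.6584 to 1.2235 in lumbar cord and -0.2659 to 0.4394 summed. Of 48 control levels 10 moved with total counts in place of TMM, all 6 tested in liver and 4 of TBCB. STMN2 and TUBB3 were too low in liver to be tested.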
